A study of Mus musculus with 12 samples.

Results

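Ikaros, encoded by Ikzf1 on mouse chromosome 11, is a zinc finger transcription factor of lymphocytes, and chromatin accessibility was compared between regulatory T cells (Treg) with and without it. The regions described here are the neighborhood of the Ikzf1 gene itself: every accessible region of the deposited ATAC-seq table within 5 Mb of either end of Ikzf1 (mm9, chr11:6585006-16672929), without those over the gene and 20 kb on each side of it (chr11:11565006-11692929). Of 118680 regions in the table, 332 lay in this interval, 37 of them were left out, and 295 remained. They were chosen by position alone. The regions were thinner here than along the whole chromosome, with 29.6 per Mb against 48.2 per Mb, and 6.10% of them covered an annotated gene start against 22.1% of the other regions of chromosome 11.

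The table holds 12 libraries in 4 groups of 3: WT ex vivo, Ikzf1-cko ex vivo, WT stimulated and Ikzf1-cko stimulated. WT cells came from Foxp3-YFP-Cre mice and Ikzf1-cko cells from mice that carried the same Cre with a floxed Ikzf1 allele (B6 background), so that both genotypes shared the Cre, which is expressed in Foxp3-positive cells. YFP-positive Treg derived from spleen were sorted, and 100000 cells were used per library. By the study's methods the sorted cells were split. One part was left untreated and the other was stimulated for 4 hr with plate-bound antibodies to CD3 and CD28. The age and sex of these mice, the strain in which the floxed allele was made and the number of backcrosses were not given in the sources used here. Mice with the floxed allele carry whatever DNA of chromosome 11 is linked to it, so within this interval the loss of Ikaros and a difference in linked DNA cannot be told apart. Accessibility over Ikzf1 does not check the deletion, because the deleted part was not given in those sources either: of 30 tested regions over the gene and its 20 kb flanks, 2 were called between genotypes ex vivo and 1 after stimulation.

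Library totals ran from 4808916 to 15355521 reads in regions and were higher in every Ikzf1-cko library (9221901 or more) than in every WT library (8596567 or fewer). In such bulk samples, fewer cells of a type and less signal per cell cannot be told apart. Of 6 Treg markers, 5 had a region over the start site (Foxp3, Il2ra, Ctla4, Cd4 and Cd3e, from 8.89 to 65.6 FPKM, the count scaled by region length and library total, over all libraries). Of 9 markers of other cells only Cd8a had one, at 1.67 to 10.8 FPKM, lower in both Ikzf1-cko groups (3.58 ex vivo and 5.81 stimulated) than in both WT groups (8.45 and 9.47). The part of such cells in the results was not tested.

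ATAC-seq reads pile up where the Tn5 transposase can reach DNA, at promoters and enhancers that transcription factors hold open. Ikaros binds DNA at GGGAA cores and recruits remodeling complexes, among them the NuRD complex, that open or close chromatin. The neighborhood holds genes of many kinds: the growth factor receptor gene Egfr, the adaptor genes Grb10 and Tns3, the actin nucleator gene Cobl, the uridine phosphorylase gene Upp1, the DNA damage checkpoint gene Hus1, and long stretches without any protein-coding gene.

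Ex vivo, the largest genotype differences lay in 6 regions that lost accessibility in Ikzf1-cko Treg. The middle 300 bases of each are shown because reads were absent or scarce there in the Ikzf1-cko ex vivo libraries. Sequences are the plus strand of the mm9 (NCBIM37) reference, with capitals marking GGGAA or its complement TTCCC.
OCR_16556 (chr11:14042624-14042923): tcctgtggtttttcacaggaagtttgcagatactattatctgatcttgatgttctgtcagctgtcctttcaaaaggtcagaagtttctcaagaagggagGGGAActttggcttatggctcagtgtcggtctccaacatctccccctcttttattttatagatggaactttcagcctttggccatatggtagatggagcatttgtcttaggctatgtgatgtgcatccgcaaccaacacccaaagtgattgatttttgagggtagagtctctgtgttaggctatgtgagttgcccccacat
OCR_16555 (chr11:14037873-14038172): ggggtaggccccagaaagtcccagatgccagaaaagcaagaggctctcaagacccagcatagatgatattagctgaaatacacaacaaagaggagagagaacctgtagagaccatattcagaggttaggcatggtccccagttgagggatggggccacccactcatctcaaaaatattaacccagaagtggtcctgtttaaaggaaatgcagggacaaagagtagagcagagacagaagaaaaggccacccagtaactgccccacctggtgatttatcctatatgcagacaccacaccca
OCR_16436 (chr11:10956331-10956630): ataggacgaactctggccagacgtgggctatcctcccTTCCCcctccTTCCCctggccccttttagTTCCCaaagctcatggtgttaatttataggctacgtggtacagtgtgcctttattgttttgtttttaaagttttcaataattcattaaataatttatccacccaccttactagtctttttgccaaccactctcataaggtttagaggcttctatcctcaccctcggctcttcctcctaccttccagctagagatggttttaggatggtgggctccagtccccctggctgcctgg
OCR_16557 (chr11:14082620-14082919): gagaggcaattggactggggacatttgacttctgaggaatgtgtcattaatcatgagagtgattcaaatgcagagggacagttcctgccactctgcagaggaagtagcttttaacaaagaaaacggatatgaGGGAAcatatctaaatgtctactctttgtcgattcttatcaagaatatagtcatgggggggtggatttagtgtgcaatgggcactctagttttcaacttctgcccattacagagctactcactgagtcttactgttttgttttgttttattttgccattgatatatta
OCR_16561 (chr11:14274099-14274398): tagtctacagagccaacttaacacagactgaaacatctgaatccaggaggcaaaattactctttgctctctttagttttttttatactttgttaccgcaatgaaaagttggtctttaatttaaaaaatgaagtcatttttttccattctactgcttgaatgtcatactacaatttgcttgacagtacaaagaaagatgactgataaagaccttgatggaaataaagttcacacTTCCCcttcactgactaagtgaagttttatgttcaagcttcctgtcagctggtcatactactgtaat
OCR_16372 (chr11:9108476-9108775): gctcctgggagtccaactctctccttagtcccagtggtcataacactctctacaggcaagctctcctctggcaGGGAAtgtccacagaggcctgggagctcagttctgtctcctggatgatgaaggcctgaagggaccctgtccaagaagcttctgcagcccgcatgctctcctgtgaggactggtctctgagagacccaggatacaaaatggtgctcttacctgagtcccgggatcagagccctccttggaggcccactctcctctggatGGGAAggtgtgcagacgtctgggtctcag

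The GGGAA core stood 3 times in the window of OCR_16436, 2 times in that of OCR_16372, once each in OCR_16556, OCR_16557 and OCR_16561, and not at all in OCR_16555. In the central 151 bases of the regions, read on both strands, GGGAA was found in 39.0% of the 295 neighborhood regions and in 35.6% of the 118480 regions of the table with sequence. The AP-1 motif TGANTCA was found in 7.8% against 8.96%, and the ETS core CCGGAA in 3.05% against 3.96%. None of these searched motifs contains another, although matches can share bases, and a match describes the letters of the reference and not a bound site.

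OCR_16556 (chr11:14042402-14043145) was the strongest of the regions that were lost. It lies 2.37 Mb downstream of Ikzf1 in an intron of 4930554G24Rik, a noncoding transcript. The WT ex vivo libraries held 81, 120 and 152 reads there and the stimulated WT libraries 86, 63 and 72, while the Ikzf1-cko libraries held 0, 1 and 0 ex vivo and 0, 0 and 0 after stimulation. All 6 WT libraries thus stood far above all 6 Ikzf1-cko libraries. Only WT libraries reached the filter level there, so the filter favored a lower level in Ikzf1-cko. Ex vivo, the depth-scaled ratio of WT to Ikzf1-cko reads was 675, with an exact 95% counting interval of 120.4 to 26738. After stimulation accessibility was at least 45.9-fold lower in Ikzf1-cko, taking 3 reads in each library as the level that a count of 0 allows. These intervals and floors cover counting error only. By edgeR's quasi-likelihood test, adjusted over all tested regions, p was 1.32e-16 ex vivo and 8.2e-15 after stimulation.

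OCR_16555 (chr11:14037852-14038193) lies 4.21 kb before OCR_16556 in the same intron. It held 11, 30 and 29 reads in WT ex vivo, 32, 20 and 26 in stimulated WT, and 0 in every Ikzf1-cko library. Accessibility was at least 14.9-fold lower in Ikzf1-cko ex vivo (edgeR adjusted p = 2.32e-07) and at least 16.2-fold lower after stimulation (adjusted p = 6.6e-08), although it passed the filter only with the stimulated WT libraries. The next region before this pair, OCR_16554, lies 4.66 kb away and held 10 to 19 reads in each Ikzf1-cko library against 8 to 28 in each WT library. The next one after it, OCR_16557, is 39.4 kb away. The stretch with no Ikzf1-cko reads therefore lay between neighbors that did have them.

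OCR_16436 (chr11:10956123-10956838), 628 kb upstream of Ikzf1 and intergenic, was the other such region, and lies 57388 bp from the start of Vwc2, which encodes a secreted BMP antagonist. It held 10, 22 and 18 reads in WT ex vivo, 59, 34 and 27 in stimulated WT and 0 in all 6 Ikzf1-cko libraries. It was at least 10.6-fold lower in Ikzf1-cko ex vivo (edgeR adjusted p = 9.71e-07) and at least 24.9-fold lower after stimulation (adjusted p = 8.73e-09). It passed the filter only with the stimulated WT libraries, so its higher level there was selected for. The nearer neighbor, OCR_16435, lies 21.4 kb before it and was too weak to test. It held 0 to 8 reads in each Ikzf1-cko library against 4 to 23 in each WT library. OCR_16437, over a start of Vwc2 and 57.1 kb further on, held 19 to 38 reads in each Ikzf1-cko library. Each WT library held 16 to 65 reads there, at lower library totals.

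Such a pattern was rare in the series. Over all 118680 regions, 6 had at most 3 reads in every Ikzf1-cko library and at least 5 in every WT library, all 6 on chromosome 11. The other 3 lay 6.43, 8.06 and 12.8 Mb downstream of Ikzf1, and were too weak to be tested. No region of the table showed the reverse pattern at these limits. With at most 10 reads in one genotype and at least 15 in the other, 2 regions were low in Ikzf1-cko, 1 of them on chromosome 11, and 38 were low in WT, all on other chromosomes. These limits are on raw reads, while every Ikzf1-cko library had a higher total than every WT library, so the counts are not at equal depth. Of the 31-base words of the reference sequence, 94.3% in OCR_16436, 67.6% in OCR_16555 and 70.2% in OCR_16556 occur once in the genome, against a median of 100% over the tested neighborhood regions, and 28.6% to 53.2% in the 3 regions farther away. The part of unmatched sequence in these counts was not tested.

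**Figure D1:**
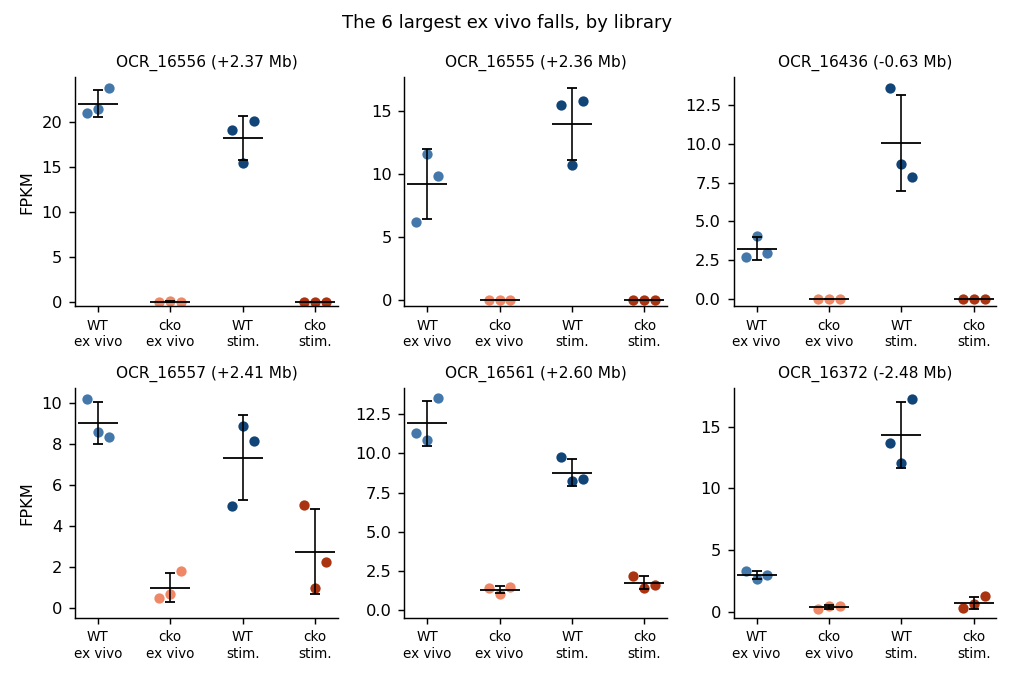
FPKM in each library (points), with the mean and SD of 3 libraries (black), for the 6 neighborhood regions with the largest ex vivo fall. Distances from Ikzf1 are in Mb, negative upstream. The top 3 regions sit at or near 0 in all 6 Ikzf1-cko libraries, while OCR_16557 recovers in 1 stimulated Ikzf1-cko library (5.01 FPKM).

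The next largest falls kept some reads in Ikzf1-cko. OCR_16561 (chr11:14273927-14274571, intergenic, 2.60 Mb downstream) measured 11.3, 10.9 and 13.5 FPKM in WT ex vivo and 1.41, 1.01 and 1.46 in Ikzf1-cko ex vivo. In the stimulated libraries it measured 9.74, 8.21 and 8.38 FPKM in WT and 2.19, 1.42 and 1.62 in Ikzf1-cko. The genotypes did not overlap in either state, and the log2 fold change was -3.19 ± 0.27 ex vivo (SE, edgeR adjusted p = 1.31e-09) and -2.33 ± 0.29 stimulated (adjusted p = 3.69e-07). Here too only WT libraries reached the filter level, so the filter favored a lower level in Ikzf1-cko.

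OCR_16557 (chr11:14082554-14082986, intergenic) measured 10.2, 8.57 and 8.33 FPKM in WT ex vivo and 0.451, 0.671 and 1.78 in Ikzf1-cko ex vivo, a log2 fold change of -3.24 ± 0.51 (edgeR adjusted p = 3.27e-05). The region passed the filter only through the WT ex vivo libraries, so the ex vivo fall was selected for. The stimulated libraries overlapped, with 4.96, 8.86 and 8.16 FPKM in WT and 5.01, 0.940 and 2.22 in Ikzf1-cko. The log2 fold change there was -1.43 ± 0.48 (adjusted p = 0.0141). This call was lost without WT stimulated replicate 2 (-1.26) or 3 (-1.35) and without Ikzf1-cko stimulated replicate 2 (-1.03) or 3 (-1.30), and under a scaling that follows abundance the value was 0.31.

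OCR_16372 (chr11:9108451-9108800) lies in an intron of Abca13, a lipid transporter gene, 2.48 Mb upstream. It held 6, 7 and 9 reads in WT ex vivo against 1, 2 and 2 in Ikzf1-cko, and 29, 23 and 29 in stimulated WT against 1, 2 and 5. The genotypes did not overlap in either state despite the low counts. The log2 fold change was -2.94 ± 0.69 ex vivo (edgeR adjusted p = 0.00275) and -4.19 ± 0.54 stimulated (adjusted p = 4.99e-07). The region passed the filter only with the stimulated WT libraries, so the stimulated fall was selected for, and under the loess scaling it was -1.77. The ex vivo call was lost with thinned counts (adjusted p = 0.0533) and with limma at a pseudocount of 0.1 (adjusted p = 0.0725).

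All genotype calls in the neighborhood were lower in Ikzf1-cko, although 1 region ex vivo and 3 after stimulation were higher at an adjusted p under 0.05 with a smaller fold. A region was tested where at least 3 libraries reached 3.6 CPM (counts scaled by the library total), which kept 149 of the 295 neighborhood regions and 69957 of all regions, and was called at an adjusted p under 0.05 with an absolute log2 fold change over 1. The 146 neighborhood regions that were not tested held 0 to 60 reads per library. Ex vivo, 23 of the 149 were called, all of them lower in Ikzf1-cko, where 4.63% of all tested regions were called and 4.04% were lower. Of these 23, 18 (78.3%) did not overlap between genotypes, where 86.5% of all called regions, or 4% of all tested ones, did not. The median log2 fold change was -0.64 over the neighborhood and -0.13 over all tested regions, and 138 of the 149 had a value below 0.

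In stimulated Treg, 104 of the 149 neighborhood regions were called, again all lower in Ikzf1-cko, where 21.3% of all tested regions were called and 20.2% were lower. The median log2 fold change was -1.60 over the neighborhood and -0.11 over all tested regions. Of the 23 regions lower ex vivo, 18 were also called in the stimulated libraries, and all 23 had a value below 0 there. Those are separate libraries, but by the study's methods sorted cells were split between the states. These 18 were 78.3% of the ex vivo calls and 17.3% of the stimulated ones. Across the 149 regions, Pearson's r between the ex vivo and stimulated fold changes was 0.84 and Spearman's rho 0.46, as a description, since the regions share libraries and depth.

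Most neighborhood regions were weak, and weak regions were called more often than strong ones over the whole table. Of 5 equal classes of all tested regions by mean CPM, the weakest took 6.0% to 7.10% of the reads in the stimulated WT libraries, 2.60% to 3.62% in WT ex vivo, 1.90% to 2.76% in Ikzf1-cko ex vivo and 2.49% to 3.30% in stimulated Ikzf1-cko. In that class 68.4% of all regions were called between the stimulated genotypes, against 61 of 65 in the neighborhood. In the strongest class 1.87% were called, against 0 of 12 in the neighborhood. In the 3 classes between them, from weak to strong, 24 of 30, 13 of 26 and 6 of 16 neighborhood regions were called, where 20.5%, 10.3% and 5.67% of all regions were.

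**Figure D2:**
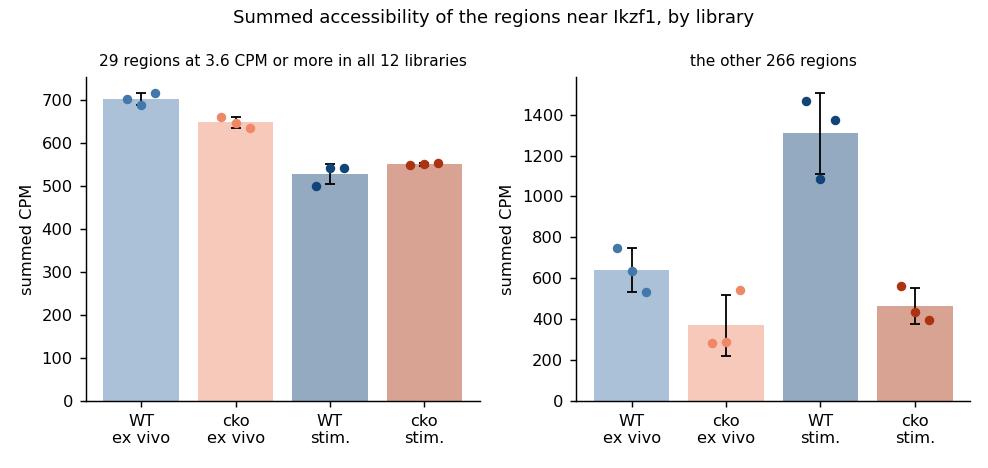
Summed CPM of the 29 neighborhood regions that reached 3.6 CPM in all 12 libraries and of the other 266, by group (bars, mean of 3 libraries with SD; points, libraries). The 29 stronger regions summed to 635 to 717 CPM ex vivo and 501 to 554 CPM after stimulation, whereas the others reached 1087 to 1467 CPM in stimulated WT and stayed between 283 and 751 CPM in the other groups.

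Of the 149 tested regions, 84 passed the filter only because of the stimulated WT libraries. A higher level in stimulated WT was selected for there, so their count in comparisons with stimulated WT supports nothing. The other 65 passed without those libraries, 1 of them (OCR_16557) through WT ex vivo alone, so its ex vivo call was selected for. Of these 65, 11 were called ex vivo, all lower, where 3.05% of the 53438 regions of the table that pass in the same way were called. In the stimulated state 24 of the 65 were called, all lower, where 6.07% were called. Under a scaling that follows abundance (loess), 14 of the 149 neighborhood regions were called ex vivo, where 2.27% of all regions were called and 1.1% were lower, and 40 in the stimulated state, where 6.74% were called and 4.28% were lower. All of these neighborhood calls were lower, while of all tested regions 816 were called higher and 773 lower ex vivo. With the filter set to 3.6 CPM in all 12 libraries, 29 neighborhood regions were tested, 1 was called ex vivo and 3 in the stimulated state, where 0.99% and 2.5% of all regions were.

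The share of regions called did not fall off steadily with distance from the gene. Within 3 Mb of Ikzf1, 17 of 101 tested regions were called ex vivo (16.8%), and 6 of 48 farther out (12.5%). After stimulation 71 of 101 (70.3%) and 33 of 48 (68.8%) were called, but of the regions that passed the filter without stimulated WT 14 of 42 (33.3%) and 10 of 23 (43.5%) were. Over all tested regions 21.3% were called after stimulation, and 6.07% of those that passed without stimulated WT. Downstream of Ikzf1 the ex vivo falls were dense from 1 to 3 Mb, a stretch picked from these counts. There 8 of 9 tested regions were called, where 4.63% of all tested regions were. The median log2 fold change was -1.83 between 1 and 2 Mb and -3.22 between 2 and 3 Mb. Most of this stretch has Gm17624 as its nearest coding gene, and of the 10 tested regions nearest to that gene 9 were lower ex vivo and 10 after stimulation, of which 3 passed the filter without stimulated WT. The stretch includes a cluster of 3 regions 1.08 to 1.09 Mb downstream (OCR_16540, OCR_16541 and OCR_16542), whose log2 fold changes were -1.83, -1.95 and -1.58 ex vivo. All 3 passed the filter only with the stimulated WT libraries, and they were named for these falls and not by a rule.

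**Figure D3:**
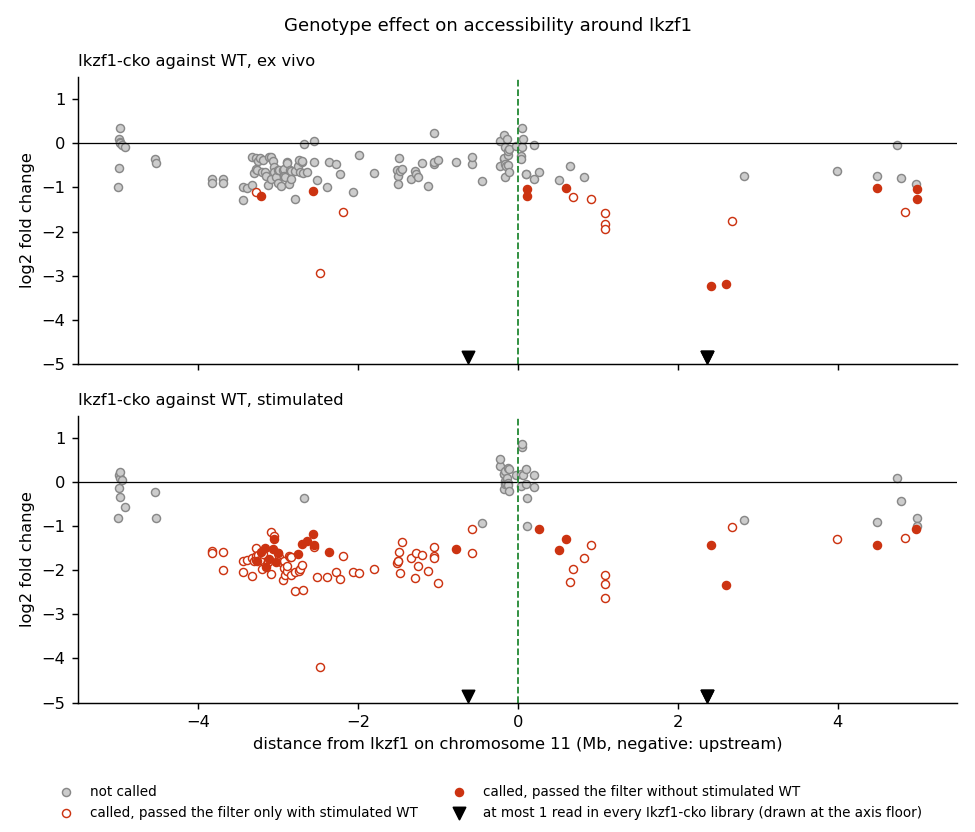
Log2 fold change of Ikzf1-cko against WT for the 149 tested neighborhood regions by distance from Ikzf1 (dashed line), ex vivo (top) and stimulated (bottom). Red marks called regions, open where only the stimulated WT libraries passed the filter, and triangles are the 3 regions with at most 1 read in every Ikzf1-cko library. Values near -2 fill the span from 1 to 4 Mb upstream in the stimulated panel, and those beside Ikzf1 lie around 0.

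Upstream, the stimulated libraries showed a long run of falls. From 1 to 4 Mb upstream (chr11:7762974-10582945), 81 of 82 tested regions were called lower in stimulated Ikzf1-cko, with a median log2 fold change of -1.78. Over all tested regions 20.2% were lower. This span was not planned and joins the 1 Mb bins in which nearly all regions were called. Of the 82, 16 passed the filter without the stimulated WT libraries. Of those, 15 were called, with a median of -1.55, where 6.07% of all regions that pass in the same way were called. Beyond 4 Mb upstream 0 of 10 were called, and within 1 Mb upstream 4 of 21 were. Ex vivo, 5 of the 82 were called, with a median of -0.64, where 4.63% of all tested regions were called. From 5 to 10 Mb from Ikzf1, outside the neighborhood, the share called was 4.95% ex vivo and 8.33% stimulated, of 384 regions.

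By gene, 14 of 23 nearest coding genes had at least 3 tested regions. Around Tns3, which encodes a focal adhesion protein, 36 of 36 regions were lower in stimulated Ikzf1-cko and 2 ex vivo. Around Pkd1l1, a polycystin family gene, the counts were 14 of 14 and 0, and around Abca13 they were 10 of 10 and 2. Around Vwc2, 20 of 21 were lower after stimulation and 1 ex vivo. Over all tested regions 20.2% were lower after stimulation and 4.04% ex vivo. Of the 36 regions around Tns3, 9 passed the filter without the stimulated WT libraries, as did 2 of the 14, 1 of the 10 and 1 of the 21.

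The coding genes next to Ikzf1 had few tested regions. All 12 tested regions nearest to 4930415F15Rik and all 3 nearest to 4930512M02Rik, the coding genes just upstream of Ikzf1, passed the filter without stimulated WT, and 0 of these 15 were called in either genotype comparison. Over all regions that pass in the same way 3.05% were called ex vivo and 6.07% after stimulation, so 0 of 15 is near that share. The log2 fold changes of these 15 ran from -0.75 to 0.18 ex vivo and from -0.22 to 0.53 after stimulation. Around Ddc, the aromatic amino acid decarboxylase gene just downstream, 2 of 7 were lower ex vivo and 0 after stimulation. All 7 passed without stimulated WT as well, so the same shares apply. The values after stimulation ran from -0.996 to 0.85 there.

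Of 36 listed genes, 20 have their start outside the interval, 3 (Adcy1, Igfbp1 and Abca13) had no region within 1 kb of a start, and 1 (Igfbp3) had a region too weak to test. Among the 12 others, 2 start-site regions were called lower ex vivo and 7 after stimulation, and none was higher, where 4.63% and 21.3% of all tested regions were called. Of the 7, Cobl and Vwc2 passed the filter only with the stimulated WT libraries. In the signaling and growth group (Grb10, Egfr and Tns3) 0 of 3 were called ex vivo and 3 of 3 were lower after stimulation. In metabolism and transport (Upp1, Ddc and Sec61g) the count was 1 of 3 in each state, and in the nuclear and DNA repair group (Hus1 and Fignl1) it was 0 of 2. Of the remaining listed genes (Cobl, Vwc2, Zpbp and Vstm2a) 1 of 4 was lower ex vivo and 3 of 4 after stimulation.

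Cobl, whose product nucleates actin filaments, was lower in both states (chr11:12364918-12365659 over its start). It measured 3.89, 4.46 and 4.23 FPKM in WT ex vivo against 1.32, 1.37 and 2.88 in Ikzf1-cko, and 13.1, 10.1 and 12.9 in stimulated WT against 4.97, 2.06 and 2.35. The genotypes did not overlap in either state. The log2 fold change was -1.22 ± 0.34 ex vivo (SE, edgeR adjusted p = 0.0101) and -1.96 ± 0.29 stimulated (adjusted p = 3.61e-06). The region passed the filter only with the stimulated WT libraries, so the stimulated fall was selected for. The ex vivo call held in 18 of 22 alternatives, was -0.90 with limma at a pseudocount of 1, and was lost without Ikzf1-cko ex vivo replicate 1 (adjusted p = 0.052) or 2 (adjusted p = 0.0526).

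Upp1, the enzyme that breaks down uridine, was the other start called in both states (chr11:9018410-9019122). It measured 8.63, 5.95 and 6.04 FPKM in WT ex vivo against 2.01, 2.34 and 5.39 in Ikzf1-cko, and 15.3, 11.5 and 9.33 in stimulated WT against 5.93, 4.71 and 5.50. The third ex vivo Ikzf1-cko library came close to the WT values. The log2 fold change was -1.09 ± 0.28 ex vivo (edgeR adjusted p = 0.00584) and -1.18 ± 0.25 stimulated (adjusted p = 0.000323). The ex vivo call held in 17 of 23 alternatives, and fell short of the fold threshold on dropping WT ex vivo replicate 1 (-0.93), or replicate 1 (-0.82) or 2 (-0.91) of Ikzf1-cko ex vivo.

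Egfr, the epidermal growth factor receptor gene at the far downstream edge, measured 9.10, 9.64 and 7.5 FPKM at its start in WT ex vivo (chr11:16651933-16653623) against 4.97, 3.78 and 4.90 in Ikzf1-cko. After stimulation it measured 11.7, 8.43 and 11.2 against 5.64, 3.85 and 5.52. Both states separated the genotypes, with a log2 fold change of -0.93 ± 0.16 ex vivo (edgeR adjusted p = 7.34e-05, short of the fold threshold) and -1.06 ± 0.16 stimulated (adjusted p = 6.35e-06). The stimulated call held in 17 of 24 alternatives, and fell short of the fold threshold without WT stimulated replicate 1 (-0.96) or Ikzf1-cko stimulated replicate 2 (-0.91). A pair of regions in an Egfr intron, OCR_16587 and OCR_16588, were called lower ex vivo at -1.26 and -1.04. They were named for these calls and not by a rule.

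Grb10, an adaptor that restrains insulin and growth factor receptors, fell at its start only past the threshold of the stimulated comparison, with a log2 fold change of -0.65 ± 0.24 ex vivo (edgeR adjusted p = 0.0496) and -1.06 ± 0.22 stimulated (adjusted p = 0.000182). That call held in 15 of 23 alternatives, with -0.83 under the loess scaling, and fell short of the fold threshold without WT stimulated replicate 1 or 3 (both -0.99) or Ikzf1-cko stimulated replicate 2 (-0.94). Vstm2a was called in the stimulated comparison as well, at -1.44 ± 0.25. Vwc2 had -1.07 ± 0.38 there and held its call in 14 of 22 alternatives, with -0.09 under the loess scaling and losses without WT stimulated replicate 1 (-0.99) and without Ikzf1-cko stimulated replicate 2 (-0.87) or 3 (adjusted p = 0.0664). This value is from OCR_16438. OCR_16437, over another start of Vwc2, held 65, 35 and 46 reads in stimulated WT. In stimulated Ikzf1-cko it held 38, 28 and 22, at higher library totals. Both regions passed the filter only with the stimulated WT libraries. At 2 strongly accessible starts the ex vivo means lay within the spread of the libraries. Sec61g, a subunit of the protein translocation channel, measured 61.0 ± 2.61 FPKM in WT ex vivo and 59.6 ± 4.56 in Ikzf1-cko (SD, n = 3), and Hus1 35.2 ± 5.67 and 34.8 ± 5.33. Fignl1, an ATPase gene of DNA repair just downstream of Ikzf1, measured 57.9 ± 3.6 and 47.7 ± 1.54, a log2 fold change of -0.29 (edgeR adjusted p = 0.00937) that stayed short of the fold threshold.

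**Figure D4:**
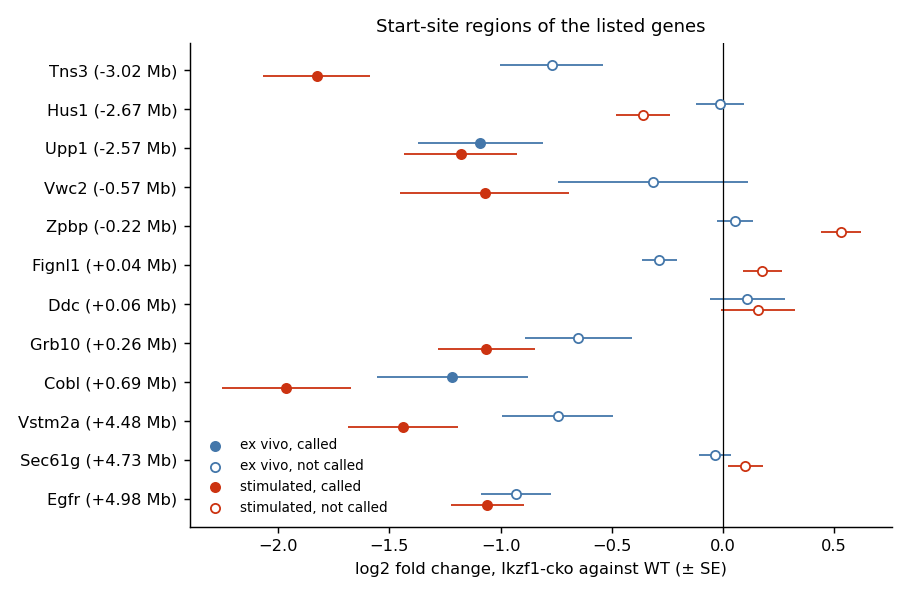
Log2 fold change of Ikzf1-cko against WT (± SE) at the tested start-site regions of 12 listed genes, ordered along chromosome 11, ex vivo (blue) and stimulated (red), filled where called. Upp1 and Cobl are called in both states, Tns3, Vwc2, Grb10, Vstm2a and Egfr in the stimulated state only, and Hus1, Zpbp, Fignl1, Ddc and Sec61g in neither.

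The stimulation response was tested in each genotype, with libraries that also enter the genotype comparisons. In WT, 81 of 149 regions were called, 77 of them higher, where 20% of all tested regions were called and 17.7% were higher. In Ikzf1-cko 6 were called, 5 of them higher, where 3.65% of all tested regions were called and 3.02% were higher. The median log2 fold change was 1.23 in WT and 0.33 in Ikzf1-cko. Of the 77 regions higher in WT, 74 passed the filter only through the stimulated WT libraries. Among the 65 regions that passed without them, 7 were called in WT, 3 higher and 4 lower, where 5.66% of such regions were called. In Ikzf1-cko 2 of the 65 were called, where 1.77% of such regions on other chromosomes were. Under the loess scaling 19 of the 149 were called in WT, where 7.1% of all regions were.

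**Figure D5:**
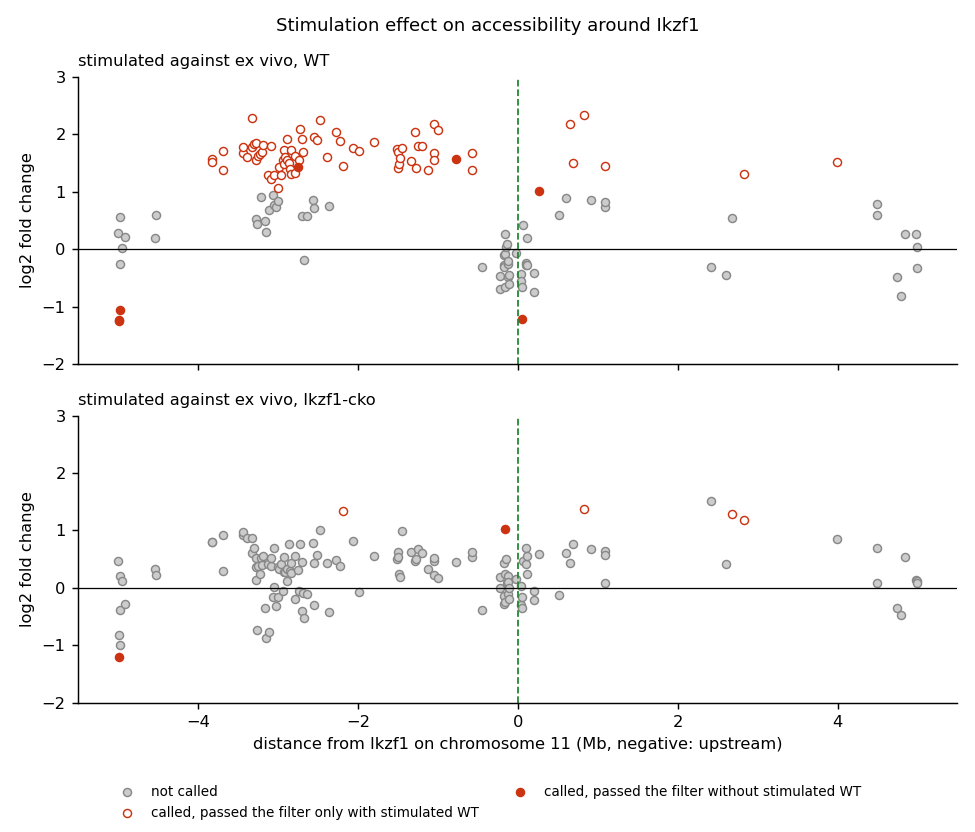
Log2 fold change on stimulation in WT (top) and Ikzf1-cko (bottom) by distance from Ikzf1 for the tested neighborhood regions, without the 3 regions that have at most 1 read in every Ikzf1-cko library. In WT the called rises are nearly all open circles, which passed the filter only with the stimulated WT libraries, and in Ikzf1-cko 6 regions are called.

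The largest called rises on stimulation in WT were at OCR_16536, OCR_16295 and OCR_16372, which all passed the filter only with the stimulated WT libraries, so that these WT rises were selected for. OCR_16536, an intergenic region 829 kb downstream of Ikzf1 (chr11:12501849-12502094), went from 3.91, 3.77 and 2.36 FPKM to 16.1, 17.1 and 16.9 in WT, a log2 fold change of 2.33 ± 0.47 (edgeR adjusted p = 0.000224). In Ikzf1-cko it went from 1.06, 2.07 and 2.78 to 4.85, 4.55 and 5.67, a log2 fold change of 1.37 ± 0.49 (adjusted p = 0.0407). The states did not overlap in either genotype. Under the loess scaling the values were 0.19 in WT (edgeR adjusted p = 0.74) and 0.63 in Ikzf1-cko (adjusted p = 0.245). The Ikzf1-cko call was also lost under DESeq2, thinned counts, a replicate block and a fit of only the 2 groups. It was lost too without any single stimulated library or without Ikzf1-cko ex vivo replicate 1 or 2. OCR_16295, intergenic near Tns3, rose by 2.28 ± 0.35 in WT (adjusted p = 5.21e-06) and had a value of 0.87 ± 0.35 in Ikzf1-cko (adjusted p = 0.0677).

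OCR_16381 in Abca13 and OCR_16562, 2.67 Mb downstream, were the other 2 leading rises in Ikzf1-cko, by 1.34 ± 0.42 (edgeR adjusted p = 0.0189) and 1.29 ± 0.42 (adjusted p = 0.024). Their values in WT were 1.46 ± 0.38 (adjusted p = 0.00214) and 0.55 ± 0.39 (adjusted p = 0.251). Both regions passed the filter only with the stimulated WT libraries. Both Ikzf1-cko calls were lost under the loess scaling (0.81 and 0.71), limma at a pseudocount of 1, thinned counts and a fit of only the 2 groups. Without replicate 1 of either Ikzf1-cko group both were lost as well, and OCR_16381 also without Ikzf1-cko stimulated replicate 3.

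The clearest fall on stimulation was shared by both genotypes. OCR_16259, an intergenic region 36257 bp from the start of Ramp3 at the upstream edge (chr11:6594825-6595848), went from 81.0, 86.4 and 82.0 FPKM to 31, 36.9 and 36.8 in WT. In Ikzf1-cko it went from 92.0, 92.7 and 84.1 to 39.8, 35.6 and 41.5. The log2 fold change was -1.26 ± 0.09 in WT (edgeR adjusted p = 7.79e-12) and -1.20 ± 0.08 in Ikzf1-cko (adjusted p = 1.42e-12), and the difference between genotypes was 0.06 ± 0.12 (adjusted p = 0.80). OCR_16260, the next region, fell in WT by 1.23 ± 0.21 (adjusted p = 2.78e-05) and had a value of -0.82 ± 0.18 in Ikzf1-cko (adjusted p = 0.0012).

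The genotype difference in the stimulation response, tested as an interaction, was called at 2 of 149 regions (1.34%), no more often than over all tested regions, where 1.98% were called. The median interaction was -0.78 over the neighborhood and 0.0004 over all tested regions. Among the 65 regions that passed the filter without stimulated WT it was 0.07, against 0.11 over all regions that pass in the same way. Both called regions lay around Tns3. Its start region (OCR_16324) measured 15.3, 8.42 and 9.80 FPKM in WT ex vivo and 20.6, 14.0 and 19.3 after stimulation, while Ikzf1-cko measured 4.39, 4.51 and 10.7 and then 6.06, 5.14 and 4.14. The interaction was -1.06 ± 0.34 on the log2 scale (edgeR adjusted p = 0.0489). OCR_16303, intergenic and 43837 bp from a Tns3 start, had -1.18 ± 0.36 (adjusted p = 0.0408). Neither call held without Ikzf1-cko ex vivo replicate 3, where the interactions were -0.55 (adjusted p = 0.208) for OCR_16324 and -0.78 (adjusted p = 0.14) for OCR_16303, nor without WT ex vivo replicate 2 or 3, WT stimulated replicate 1 or 3, or Ikzf1-cko stimulated replicate 2 or 3 (adjusted p from 0.0657 to 0.172 over both regions). The naming of OCR_16303 followed from this count of 2 and not from a rule.

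The smallest interaction p-values lay beside Ikzf1 and pointed the other way, short of the fold threshold. OCR_16505, in an intron of Ddc 47.3 kb downstream of Ikzf1 (chr11:11720265-11721190), fell in WT from 46.3, 46.8 and 42.8 FPKM to 17.1, 23.3 and 17.7, and in Ikzf1-cko went from 47.8, 45.3 and 35.2 to 34.4, 30.9 and 35.3. The stimulated genotypes did not overlap, with Ikzf1-cko higher by 0.79 ± 0.13 on the log2 scale (edgeR adjusted p = 1.1e-05), and the interaction was 0.87 ± 0.16 (adjusted p = 0.00137). OCR_16512, in the same gene where the noncoding 1700042O10Rik overlaps it, had an interaction of 0.99 ± 0.19 (adjusted p = 0.00161), and OCR_16444, over the starts of Zpbp and 4930415F15Rik, 0.48 ± 0.12 (adjusted p = 0.0133). Reads at overlapping genes cannot be assigned to either one.

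One library carried weight in the ex vivo counts. The third Ikzf1-cko ex vivo library gave 543 summed CPM over the 266 weaker neighborhood regions against 283 and 290 in the others of its group. Without it 85 neighborhood regions were called lower ex vivo in place of 23, and 54 were called on stimulation in Ikzf1-cko in place of 6, while the share over all tested regions rose to 12.5% and 9.71%. The number of interaction calls ranged from 0 to 31 as single libraries were left out, and from 486 to 3376 over all 69957 tested regions.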

How the data were processed

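ATAC-seq was analysed in 12 Treg libraries, 3 per group. Per the study's methods, the authors sorted the cells, aligned paired reads with Bowtie2, removed duplicates, called peaks with MACS2 per replicate, dropped blacklisted regions and merged the peaks supported by 2 or more replicates. The labels name bcl2fastq, Bowtie2, MACS2 and mm9, and their versions were not given in the sources used here. The methods print hg19 for the alignment, but the coordinates are those of mm9. The deposited table holds raw de-duplicated read counts per region and library, which were tested. It also holds the library totals, FPKM that the authors computed from count, length and total, and log2 FPKM that the authors computed after adding 1 read. FPKM is printed as a level. A second table holds only the authors' fold changes and p-values and was not used.

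Counts were scaled by library totals and tested with edgeR 4.0.16 (glmQLFit and glmQLFTest, 4 groups in 1 fit, no covariate), since the authors' background scaling needs reads outside the regions. The test took in every region that reached 3.6 CPM in 3 or more libraries, and p-values were adjusted by Benjamini-Hochberg over all 69957. The SE was obtained by dividing the size of the log2 fold change by the square root of F. The fit was tested on simulated data. Alternatives used limma 3.58.1 and DESeq2 1.42.0. Genes and sequence came from GENCODE vM1 on NCBIM37. That reference was not repeat-masked, so the share of 31-base words found once in it was used in place of a masked share. Named regions were the 6 largest falls and rises ex vivo among those called with no overlap (there were no rises), regions with at most 3 reads in every Ikzf1-cko library, the 3 largest rises and falls on stimulation in each genotype, the 3 smallest interaction p-values, and start-site regions of 36 listed genes. Neighbors of named regions, OCR_16303, OCR_16540, OCR_16541, OCR_16542, OCR_16587 and OCR_16588 were named outside these rules. The regions, lists and rules were chosen with earlier results of these data known. The study's methods call the ATAC-seq replicates biological, but neither they nor the labels say that these are separate animals. The p-values then measure only the spread between these libraries. Sorted cells were split between the states, but the sources do not say which libraries share a sort, and no pairing was used in the main fit. Correlations of same-numbered libraries ran from -0.36 to 0.28, which cannot show that the cells were unpaired.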

Additional observations from a re-analysis of the deposited data

Results flagged for a closer look

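The interaction test, which asks whether the stimulation response differs between genotypes, passed at 2 of the 149 tested regions (1.34%), against 1.98% of all tested regions. At the start of Tns3 (OCR_16324) the interaction was -1.06 on the log2 scale, the response being 0.73 ± 0.23 in WT and -0.32 ± 0.25 in Ikzf1-cko (SE). At OCR_16303, an intergenic region near Tns3, it was -1.18, the response being 0.44 ± 0.24 in WT and -0.74 ± 0.26 in Ikzf1-cko. The third ex vivo Ikzf1-cko library (10.7 FPKM at OCR_16324 and 12.8 at OCR_16303) stood above the others of its group, and without it neither call held (-0.55, adjusted p = 0.208, at OCR_16324 and -0.78, adjusted p = 0.14, at OCR_16303, by edgeR). Both were also lost under DESeq2, both limma fits and no filter. Groups of 3 libraries were not examined for single outlying values.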

How the results depend on the processing

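With no filter 295 neighborhood regions were tested. The counts were 47 for genotype ex vivo, 222 for genotype after stimulation, 187 for stimulation in WT, 22 for stimulation in Ikzf1-cko and 1 for the interaction. Of all 118480 regions in that fit 7237, 33290, 32084, 7870 and 1475 were called. With 3.6 CPM in all 12 libraries the counts were 1, 3, 3, 1 and 1 of 29, against 339, 858, 1239, 276 and 314 of all 34257. With the filter met outside stimulated WT, an alternative added after seeing the data, they were 11, 24, 7, 3 and 5 of 65. Over all 53438 regions of that fit they were 1633, 3246, 3030, 947 and 997. Loess scaling gave 14, 40, 19 and 2 for the first 4, where 1589, 4712, 4965 and 1503 of all 69957 regions were called. It turned the sign of OCR_16557 between stimulated genotypes (0.31) and of OCR_16372 on stimulation in WT (-0.12). Limma with pseudocount 1 gave 15 ex vivo, 2 for stimulation in Ikzf1-cko and 1 for the interaction, and with pseudocount 0.1 it gave 1 for the interaction. Over all 69957 tested regions these 4 counts were 1668, 1121, 986 and 760. The interaction count was 7 with TMM, 6 with DESeq2 size factors, 0 with the DESeq2 test and 7 with thinned counts. Over all tested regions it was 1536, 1581, 688 and 1127. With adjusted p alone the counts were 42 ex vivo, 19 for stimulation in Ikzf1-cko and 8 for the interaction, and with only the 2 groups compared in the fit 3 for stimulation in Ikzf1-cko. Over all tested regions these 4 counts were 15051, 16429, 5232 and 1968. The share called within 3 Mb of Ikzf1 was 28.7% ex vivo with adjusted p alone, 53.3% stimulated within 2 Mb, 33.3% stimulated with the filter met outside stimulated WT, and 0% in both states with the filter in all 12 libraries. In the main fit 21.3% of all tested regions were called between stimulated genotypes, and 6.07% of those passing outside stimulated WT. The cause was not tested.

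Leaving out 1 library moved the ex vivo count between 15 and 85, both reached by dropping an Ikzf1-cko ex vivo library (replicates 2 and 3), the Ikzf1-cko stimulation count between 3 and 54, and the interaction count between 0 and 31. Over all 69957 tested regions these counts ranged from 2018 to 8726, from 1520 to 6792 and from 486 to 3376. The replicate block gave 23, 104, 81, 5 and 2 calls in the 5 comparisons, against 3073, 14912, 13889, 2316 and 1158 of all 69957 regions. It follows the replicate number, and since the sources do not say which libraries share a sort it is not read as a pairing. Where they were tested, the calls at OCR_16436 and OCR_16555 were lost only under limma with pseudocount 0.1, and those at OCR_16556 under none of the alternatives. None of these regions was tested with the filter in all 12 libraries, and OCR_16436 and OCR_16555 were not tested with the filter met outside stimulated WT.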
